A study of Mus musculus with 4 samples.

Results

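ATF4 and the genes induced through it were examined as a group of 10 genes, Atf4, Atf3, Ddit3, Chac1, Trib3, Asns, Sesn2, Psat1, Phgdh and Atf5, out of 18193 genes named on the array. They were measured by 20 of 45037 probe sets, taking every probe set whose annotation gives one of these symbols alone. The genes were chosen by their known place in the ATF4 pathway and selected on the log2 difference of Chac1 between these knock-in and wild-type arrays, which was already seen to be low, so the differences of all 10 genes between the genotypes are given as a description, with standard errors and no test. The arrays carried heart RNA from untreated C57B6 mice aged 3.6 months. On 2 arrays the mice had the GSK-3alpha S21A genotype, in which serine 21 of the kinase GSK-3α, which Akt phosphorylates to hold the enzyme back, is changed to alanine, and on 2 arrays they were wildtype. The comparison bears on which transcripts differ in hearts where this brake is missing. The labels give neither the number of mice behind an array nor their sex, nor whether the knock-in was on one allele or both, so n counts arrays and the spread between arrays may be technical.

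ATF4 is a transcription factor of the integrated stress response. Kinases that sense amino acid shortage, unfolded protein in the endoplasmic reticulum, viral RNA or haem shortage phosphorylate the translation factor eIF2, which slows most protein synthesis but lets the Atf4 transcript be translated more, so the Atf4 mRNA level is not a measure of the ATF4 protein. ATF4 then turns on genes of amino acid synthesis, amino acid transport, tRNA charging and redox balance, and in heart muscle this programme is known from mitochondrial stress.

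Promoter sequence is shown for the 3 genes of the group that hold, before their annotated start, the core of the CCAAT enhancer-binding protein and ATF response element (CARE), a composite element through which ATF4 acts. The RefSeq promoter windows of build GRCm38.p6 run from 250 bases before to 50 bases after each start, and all 10 genes had at least 1, with 12 windows in all. The core was searched as TGATGNAA on both strands. Each stretch below reads 5′ to 3′ on the strand of the gene, and the capitals mark the match.
Chac1 (chr2:119350992-119351241, plus strand): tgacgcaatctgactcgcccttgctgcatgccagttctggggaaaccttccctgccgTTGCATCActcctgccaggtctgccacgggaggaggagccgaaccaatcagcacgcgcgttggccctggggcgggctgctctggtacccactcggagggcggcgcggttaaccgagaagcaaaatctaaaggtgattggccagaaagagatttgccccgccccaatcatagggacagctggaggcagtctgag
Atf3 (chr1:191183410-191183469, minus strand): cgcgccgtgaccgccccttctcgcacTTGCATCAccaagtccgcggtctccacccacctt
Asns (chr6:7693210-7693269, minus strand): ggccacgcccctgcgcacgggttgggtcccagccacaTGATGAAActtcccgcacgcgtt

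The Chac1 stretch is the whole 250 bases before the start, and its match begins at base -193 on the opposite strand. The Atf3 match, with the same 8 letters, begins at base -110, and the Asns match lies at base -23 on the strand of the gene. Trib3 also had a match, at base 15 after its start. No match to these letters was found in the windows of Atf4, Ddit3, Sesn2, Psat1, Phgdh and Atf5. The core was thus present in windows of 4 of the 10 genes (40%), against 1219 of 27025 genes (4.51%) over all windows and 15 of 94 genes (16%) of the pathway lists described below that had a window. The palindrome TGACGTCA, the full cAMP response element, was found in 0 of the 10 genes and in 549 of the 27025 (2.03%). The 10 genes and the lists were chosen for their known place in the ATF4 pathway, so their higher share of CARE cores is no independent finding. A match is a run of letters and no evidence of binding.

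**Figure D1:**
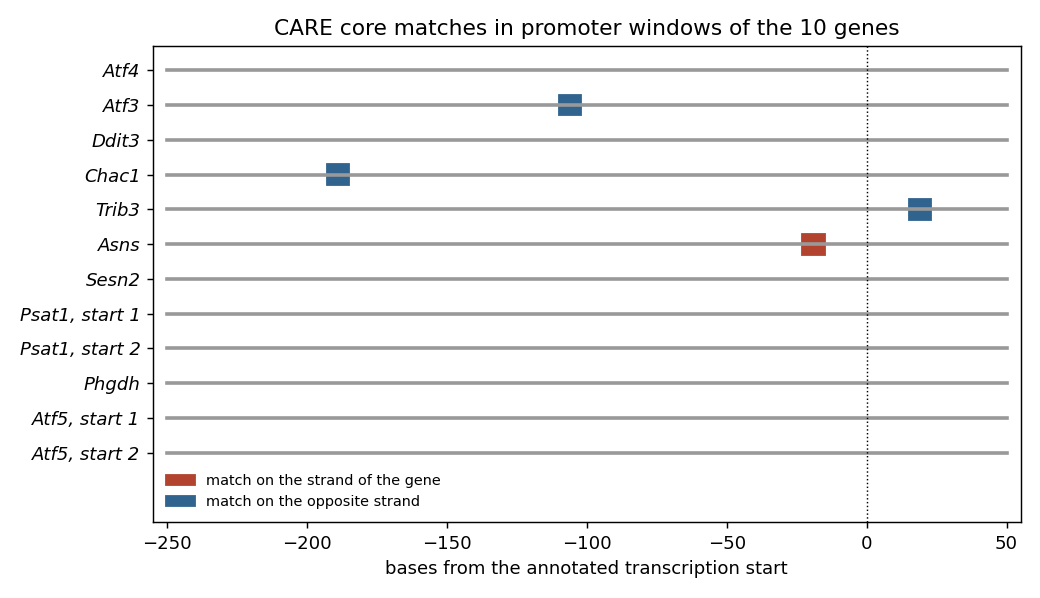
Position of each CARE core match (letters TGATGNAA) in the 12 RefSeq promoter windows of the 10 genes, in bases from the annotated transcription start on the x axis, with 1 row per window. Red boxes are matches on the strand of the gene and blue boxes matches on the opposite strand, drawn to scale at 8 bases. Chac1, Atf3 and Asns have a match before the start and Trib3 has one after it.

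The RNA bore the marks of heart muscle on every array, and of liver to an unequal extent. The cardiomyocyte genes Myh6, Tnnt2 and Tnni3 had log2 values between 14.22 and 14.71, and the median difference (knock-in minus wild-type) of 10 cardiomyocyte markers was 0.05. For liver, 18 of 19 markers had a higher mean on the knock-in arrays, with a median log2 value of 8.37 and 6.75 on knock-in arrays 1 and 2, against 5.49 and 5.35 on wild-type arrays 1 and 2. All 8 fibroblast markers were higher, with a median difference of 0.17, as were 6 of 8 endothelial markers at 0.19 and 7 of 8 macrophage markers at 0.11. Each of 7 lymphocyte markers had a lower mean, at a median difference of -0.21. Smooth muscle, adipocyte and erythroid markers had medians of -0.01, -0.07 and 0.02. These lists held only 6, 4 and 3 genes, of which 3, 2 and 2 were higher. Their differences ran from -0.34 to 0.27, from -0.19 to 0.74 (Adipoq) and from -0.02 to 0.42 (Alas2). Adipoq had 6.89 on knock-in array 2, against 5.13 on knock-in array 1 and 5.23 and 5.30 on the wild-type arrays. The erythroid median was that of Hba-a1, whose values of 4.73 to 4.76 are dim. The part these differences have in the values below was not tested, and in whole tissue a change in the mix of cells and a change in RNA per cell cannot be told apart. Gsk3a itself had log2 values of 10.62 and 10.80 in knock-in hearts, against 11.16 and 11.08 in wild-type hearts (limma adjusted p = 0.458). Gsk3b differed by -0.09 by its brightest probe set (limma adjusted p = 0.792). Its other probe sets gave -0.45, -0.44, 0.06, -0.03 and -0.09.

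Chac1 had the largest difference of the 10 genes. It encodes a γ-glutamylcyclotransferase that breaks down glutathione in the cytosol, and it is measured by 1 probe set (1451382_at, gene on chromosome 2). Its log2 values were 7.70 and 7.84 on the knock-in arrays, against 8.99 and 8.87 on the wild-type arrays. Each knock-in array lay at least 1.03 below each wild-type array, and within each genotype the arrays differed by 0.15 and 0.12, sizes larger than those of 61.5% and 45.9% of all genes. The means were 7.77 ± 0.10 in knock-in and 8.93 ± 0.09 in wild-type hearts (SD, n = 2 each), a log2 difference of -1.17 with a standard error of 0.12. On the linear scale of the RMA values Chac1 was 2.24-fold lower, and between 2.05-fold and 2.46-fold lower over the 4 pairs of a knock-in with a wild-type array. Its difference was the second lowest of the 18193 genes (rank 2, after Lgals4). Leaving out each array in turn, shifting the arrays to 1 median or cyclic loess normalisation left it between -1.24 and -1.09.

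The other 9 genes had differences between -0.17 and 0.42, with a median of 0.02. Over all 10 genes 5 were lower and 5 higher in the knock-in hearts, and the median was 0.00. Over all 18193 genes 53.0% were lower and the median was -0.01. Shifting the arrays to 1 median left 2 of the 10 genes lower. Leaving out 1 array in turn moved the difference by more than 1.5 times or turned its sign for 8 of the 10 genes, all but Chac1 and Trib3. The genotypes did not overlap for 3 of the 10 genes, with the knock-in values below for Chac1 and Trib3 and above for Atf4. That background was 24.1% of genes with the knock-in arrays below and 22.5% with them above.

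**Figure D2:**
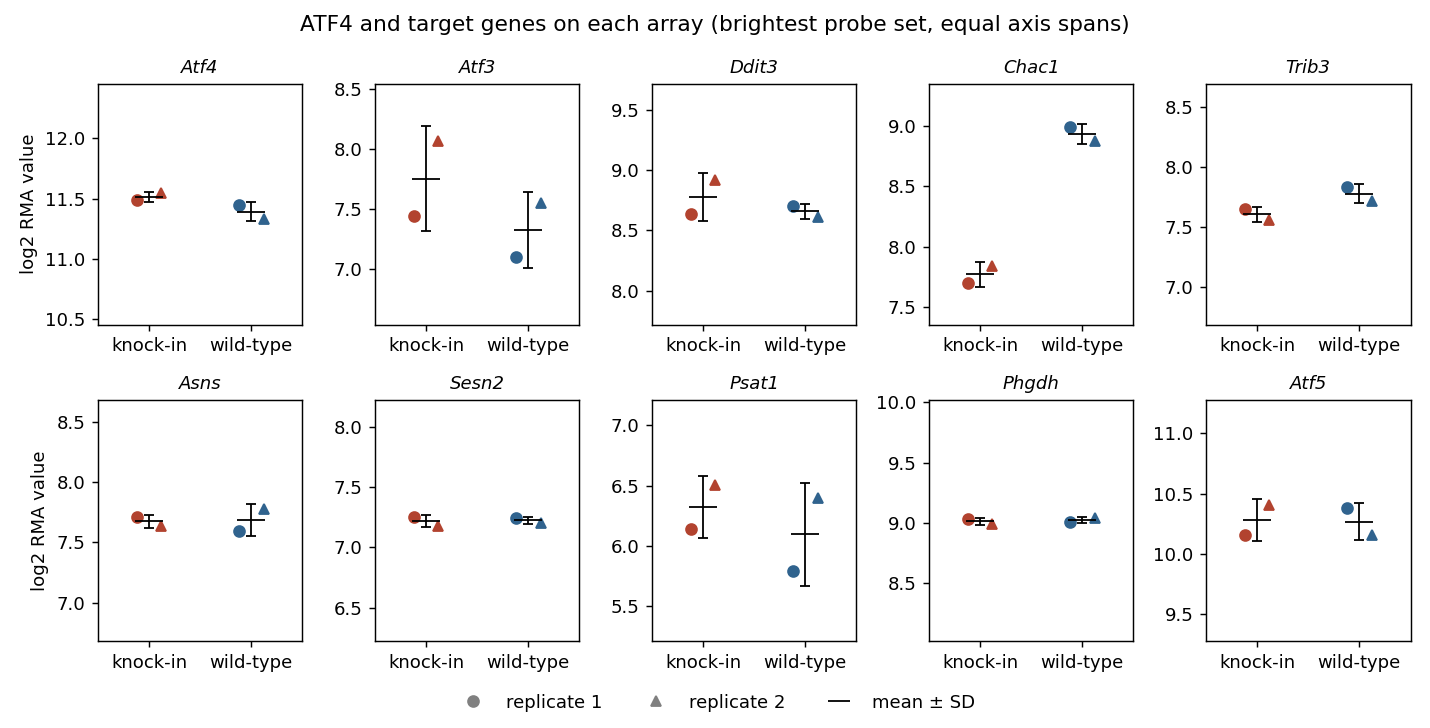
Log2 RMA value (y axis) of the brightest probe set of each of the 10 genes on the 2 knock-in arrays (left, red) and the 2 wild-type arrays (right, blue); circles are replicate 1, triangles replicate 2, black bars the mean ± SD, and each panel spans 2 log2 units. The genotypes are widely separated for Chac1, while the Atf3 and Psat1 arrays of each genotype lie far apart.

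The transcription factor genes gave small or uneven differences. Atf4 itself had log2 values of 11.49 and 11.55 on the knock-in arrays, against 11.45 and 11.34 on the wild-type arrays, by its brightest probe set. The groups were 0.04 apart at their nearest, and the difference was 0.12 with a standard error of 0.11. It was 0.05 after cyclic loess, 0.06 without wild-type replicate 2 and 0.19 by the mean of its probe sets. The other Atf4 probe sets did not settle a direction. One (1439258_at) had 7.72 and 7.80 in knock-in against 7.85 and 7.93 in wild-type hearts, a difference of -0.13. The other (1438992_x_at) had 7.31 and 7.32 in knock-in against 6.64 and 6.84 in wild-type hearts, a difference of 0.58. The ending x_at marks a probe set some of whose probes also match other transcripts, which holds for 7 of the 20 probe sets here.

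Ddit3 encodes CHOP, a factor that ATF4 induces and that is linked to cell death under prolonged stress. Its log2 values were 8.64 and 8.91 in knock-in hearts, against 8.70 and 8.61 in wild-type hearts, and the groups overlapped. The differences by its probe sets were 0.12 and 0.13, with standard errors of 0.13 and 0.12. Without knock-in replicate 2 the first of these turned to -0.02. Atf5, a relative of ATF4 that is also controlled through translation, had 10.16 and 10.41 in knock-in hearts, against 10.38 and 10.16 in wild-type hearts. The Atf5 arrays of each genotype spanned nearly the same range, and the difference was 0.02 with a standard error of 0.14. With 1 array left out it ran from -0.11 to 0.14.

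Atf3, a stress-induced factor that also responds quickly to injury and handling of tissue, had the highest difference of the group and the widest spread. Its log2 values were 7.44 and 8.06 in knock-in hearts, against 7.11 and 7.55 in wild-type hearts, so knock-in replicate 1 lay below wild-type replicate 2. The difference of 0.42 had a standard error of 0.23. It came to 0.11 without knock-in replicate 2, 0.73 without knock-in replicate 1, 0.20 without wild-type replicate 1 and 0.65 without wild-type replicate 2. The knock-in arrays differed from each other by 0.62, more than 99.2% of genes did, and the wild-type arrays by 0.45, more than 94.4% of genes did.

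Trib3 and Sesn2 act as brakes on growth signalling. Trib3 encodes a pseudokinase that binds Akt and feeds back on ATF4, and it had 7.65 and 7.56 in knock-in hearts, against 7.83 and 7.72 in wild-type hearts. The groups were 0.07 apart at their nearest, with a difference of -0.17 and a standard error of 0.11. Its x_at probe set lay the other way, at 0.10, and the mean of the probe sets gave -0.04. Sesn2, whose product sestrin 2 senses leucine and restrains mTORC1, had 7.25 and 7.18 in knock-in hearts, against 7.24 and 7.20 in wild-type hearts. These overlapped, at a difference of -0.01 (standard error 0.11), while a dimmer Sesn2 probe set gave -0.23 with a standard error of 0.14.

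The amino acid synthesis enzymes of the group showed no shared direction. Asns, asparagine synthetase, had log2 values of 7.71 and 7.64 in knock-in hearts, against 7.59 and 7.78 in wild-type hearts, a difference of -0.01 with a standard error of 0.12. Both knock-in values lay between the wild-type values, and its x_at probe set gave 0.25. Phgdh makes the first step from a glycolytic intermediate towards serine, and it averaged 9.01 ± 0.03 in knock-in and 9.02 ± 0.02 in wild-type hearts (SD, n = 2 each). All 4 Phgdh probe sets are of the x_at kind. The brightest and the dimmest each gave -0.01, while the others, at -0.34 and -0.24, had knock-in values below wild-type values.

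Psat1, the next enzyme of serine synthesis, had 6.14 and 6.50 in knock-in hearts, against 5.79 and 6.40 in wild-type hearts. The wild-type arrays differed by 0.61, more than 98.3% of genes did, and the groups overlapped. It differed by 0.23 (standard error 0.22), and by 0.22 in its dimmer probe set. Without wild-type replicate 1 it turned to -0.08, and without wild-type replicate 2 it was 0.53. Replicate 2 was the higher array in both genotypes for Psat1 and for Atf3.

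**Figure D3:**
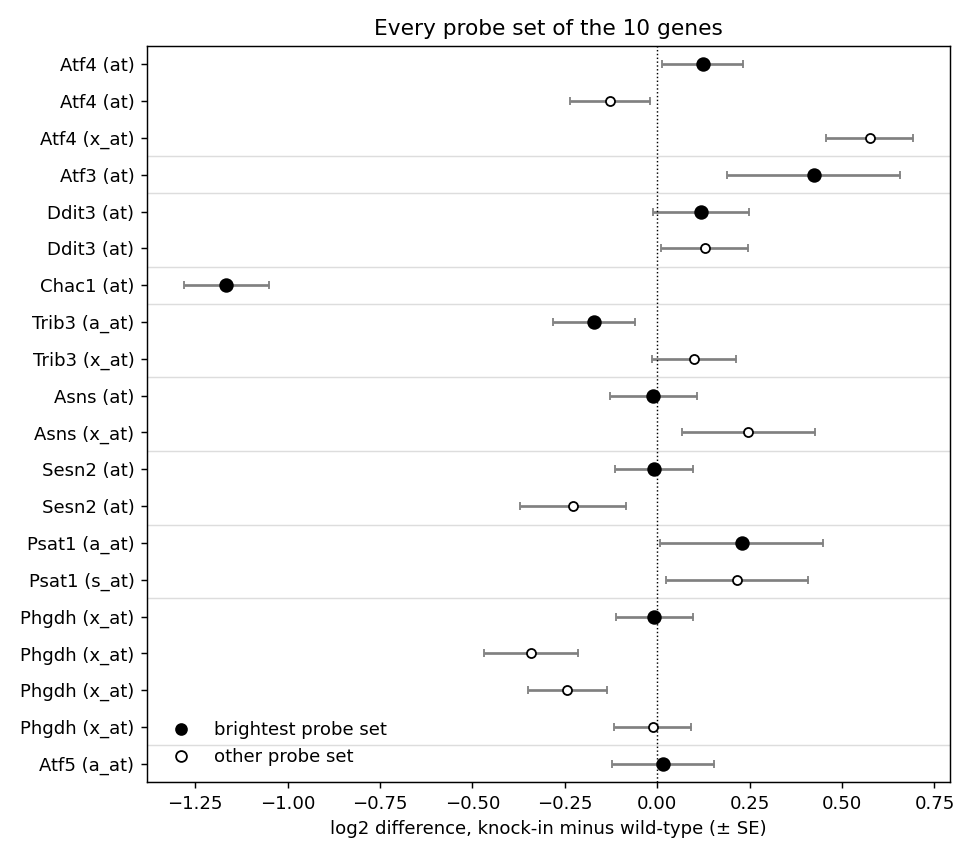
Log2 difference, knock-in minus wild-type, on the x axis for each of the 20 probe sets, with the probe set ending in brackets; bars are the standard error from the limma fit, filled circles the brightest probe set of a gene and open circles the others. Chac1 lies at -1.17, and the remaining probe sets lie between -0.34 and 0.58.

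Genes outside the ATF4 group were ranked by how closely their values ran with those of Chac1. Likeness was measured as the root mean square distance over the 4 arrays between log2 profiles, each centred on its own mean. The ranking held 12308 genes with a mean log2 value of at least 6, and the ATF4 group was left out of it. The nearest was Ano10, which encodes a membrane protein of the anoctamin family, at a distance of 0.12. It had 9.75 and 9.60 in knock-in hearts, against 10.88 and 10.62 in wild-type hearts. Gdap10 followed at 0.17 and the galectin gene Lgals4 at 0.18. Cdkn1a, a cell cycle inhibitor gene, was at 0.19, with 9.89 and 10.12 in knock-in hearts, against 10.78 and 10.90 in wild-type hearts. Ddit4, an inhibitor of mTORC1 signalling that ATF4 can also induce, was at 0.21, with 10.50 and 10.78 in knock-in hearts, against 11.38 and 11.62 in wild-type hearts.

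Each of these 5 genes had both knock-in values below both wild-type values, which follows from how they were picked. None of their promoter windows held the CARE core. Within the ATF4 group the nearest to Chac1 was Trib3, at a distance of 0.50 with 1565 genes nearer, and the farthest was Atf3 at 0.84, with 11967 genes nearer. With 4 arrays in 2 genotypes such a distance mostly reflects the difference between the genotypes, on which Chac1 was selected.

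**Figure D4:**
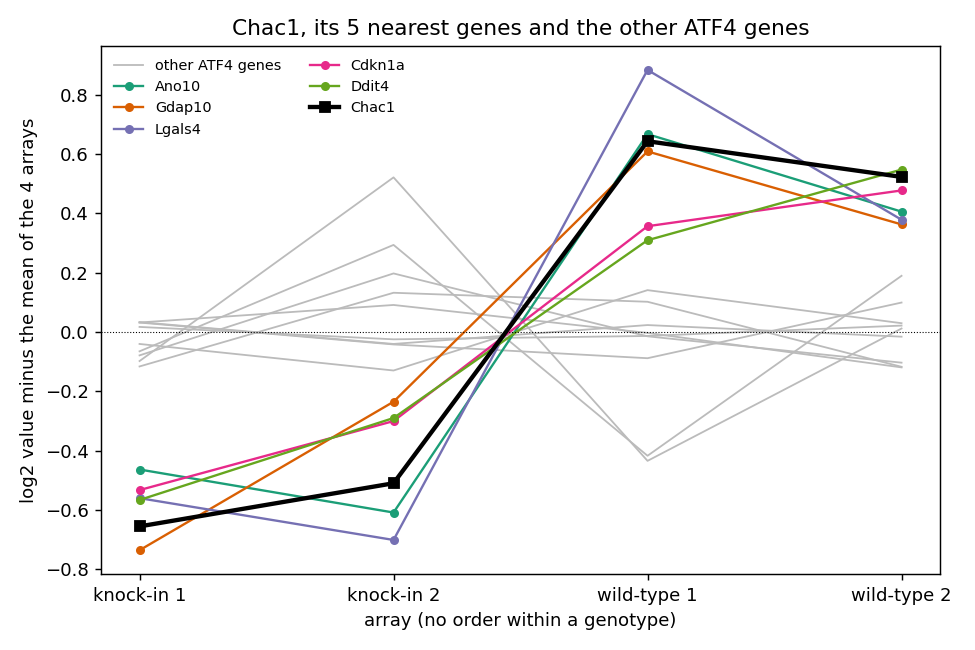
Log2 value minus the mean of the 4 arrays (y axis) on the 2 knock-in and 2 wild-type arrays (x axis) for Chac1 (black squares), its 5 nearest genes (coloured) and the other 9 genes of the ATF4 group (grey). Chac1 and its nearest genes are low on the knock-in arrays and high on the wild-type arrays, and the grey lines do not follow them.

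The wider pathway was read from 8 lists that together held 122 measured genes beyond the 10. By limma, 0 of the 122 passed the adjusted threshold in either direction, while an unadjusted p under 0.05 was reached by 10 with a higher mean (8.2%) and 12 with a lower mean (9.84%). Over all genes the adjusted threshold was passed by 0.011% upward and 0% downward, and over all probe sets by 0.00666% in either direction. An unadjusted p under 0.05 was reached by 5.45% of all genes upward and 4.76% downward. The median difference over the 122 genes was 0.03, with 72 higher and 50 lower. Over all 18193 genes it was -0.01, with 8532 higher and 9640 lower. Probe sets with a mean log2 value of at least 6 had a median difference of 0.03, against -0.04 over all probe sets. The part of signal level in the counts of higher and lower genes was not tested. The values of genes named from here on are differences that did not pass (limma adjusted p between 0.198 and 0.925). The 95% intervals given for some of them are per gene and not adjusted for the number of probe sets. Of 43 named genes outside the group, 30 moved by more than 1.5 times or turned sign when 1 array was left out.

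Upstream of ATF4, the eIF2 kinases gave differences of both signs by their brightest probe sets. Eif2ak2 (PKR, sensing double-stranded RNA) differed by -0.26, with 6.49 and 6.15 in knock-in against 6.63 and 6.54 in wild-type hearts, and by -0.09 without knock-in replicate 2. Eif2ak1, the haem-regulated kinase, differed by -0.11 and Eif2ak3 (PERK, of the endoplasmic reticulum) by 0.06. The dimmer Eif2ak3 probe sets gave -0.09 and -0.33, so its sign was not settled. Those of Eif2ak1 gave -0.05, 0.07, -0.06 and -0.11, and those of Eif2ak2 -0.11 and -0.22. Eif2ak4 (GCN2, sensing uncharged tRNA) differed by 0.40, with means of 6.05 ± 0.08 in knock-in and 5.65 ± 0.45 in wild-type hearts (SD, n = 2 each), and wild-type replicate 1 stood low at 5.33. Without that array the Eif2ak4 difference was 0.08, and its other probe set gave -0.29. Of 19 genes of the kinases and eIF2 machinery, 14 had a higher and 5 a lower mean in knock-in hearts (median 0.04). An unadjusted p under 0.05 was reached by 1 upward and 0 downward. The 1 gene was Eif2b5, a subunit of the exchange factor that recharges eIF2, at 0.30, while its dim second probe set gave -0.20. Nck1 differed by 0.22. Ppp1r15a (GADD34), the phosphatase subunit through which the response is switched off, differed by 0.04.

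Among 16 partners and related leucine zipper factors, 12 had a higher and 4 a lower mean (median 0.12), and an unadjusted p under 0.05 was reached by 2 upward and 0 downward. These were Cebpa, which is abundant in liver and fat, at 0.41 and the antioxidant factor gene Nfe2l2 at 0.40. Cebpb differed by -0.19, Cebpg, whose product pairs with ATF4, by 0.21, Cebpd by -0.30, Batf3 by -0.22 and the stress-induced gene Nupr1 by 0.13. Without wild-type replicate 1 the Nfe2l2 difference was 0.22 and that of Batf3 -0.10. Without knock-in replicate 1 Cebpb stood at -0.01, without knock-in replicate 2 Cebpg stood at 0.03 and Nupr1 at 0.05, and without wild-type replicate 2 Cebpd stood at -0.16.

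The serine, one-carbon and amino acid synthesis list held the highest value of all the lists. Cth, which makes cysteine from cystathionine, had log2 values of 6.98 and 6.67 in knock-in hearts, against 5.55 and 5.19 in wild-type hearts. Its difference was 1.45 (95% interval 1.05 to 1.86, limma adjusted p = 0.198), opposite in direction to Chac1, and both knock-in values lay above both wild-type values. Shmt1, the cytosolic serine hydroxymethyltransferase, differed by 0.80, although its other probe sets gave 0.07, 0.23 and 0.29. Both enzymes are abundant in liver, and the liver markers were higher on the same arrays. The liver marker medians were 8.37 and 6.75 on knock-in arrays 1 and 2. There Cth had 6.98 and 6.67, and Shmt1 had 7.71 and 8.06. On wild-type arrays 1 and 2 the medians were 5.49 and 5.35, where Cth had 5.55 and 5.19 and Shmt1 7.06 and 7.12. The part of liver RNA in the Cth and Shmt1 differences was not tested. Psph, the last enzyme of serine synthesis, differed by 0.34, the mitochondrial Shmt2 by 0.19, Mthfd2 by -0.12 and Bcat1 by -0.27. The other Shmt2 probe sets gave 0.04, -0.12 and -0.09, and the other Mthfd2 probe set gave 0.09. Shmt2 was 0.04 without knock-in replicate 2, Mthfd2 -0.05 without wild-type replicate 2 and Bcat1 -0.09 without wild-type replicate 1. Of 14 measured genes, 7 had a higher and 7 a lower mean (median 0.03), and Cth, Shmt1 and Psph were the 3 with an unadjusted p under 0.05 upward, against 0 downward.

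Of the amino acid transporters, 7 of 11 had a lower mean in knock-in hearts, and the median difference was -0.09. Slc1a5, which carries glutamine and other neutral amino acids, had 7.73 and 7.78 in knock-in hearts, against 8.22 and 8.25 in wild-type hearts. Its difference was -0.49 (95% interval -0.74 to -0.24, limma adjusted p = 0.458), and it was the 1 transporter with an unadjusted p under 0.05 downward, against 0 upward. The dimmer Slc1a5 probe set gave -0.14. Slc7a11, the cystine carrier that feeds glutathione synthesis, differed by -0.16, with values near 4 that lie far below the array medians of 6.14 to 6.23. Its partner Slc3a2 differed by 0.13 and Slc38a2 by 0.12, and without wild-type replicate 1 these were 0.02 and -0.02. Without knock-in replicate 2 Slc3a2 stood at 0.04.

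Genes for aminoacyl-tRNA synthetases, which charge tRNA with amino acids, were higher for 15 of 18, by a median of 0.12. Hars differed by 0.46 and Tars by 0.28, the 2 with an unadjusted p under 0.05 upward, against 0 downward. The Hars difference was 0.26 without wild-type replicate 1, and its other probe set gave 0.13. Aars and Iars, at -0.09 and -0.06, were the lowest. After cyclic loess Hars stood at 0.40, Tars at 0.20, Aars at -0.16 and Iars at -0.14.

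The list of other reported ATF4-dependent stress genes held the lowest value. Ddit4, given above, differed by -0.86 (95% interval -1.20 to -0.51, limma adjusted p = 0.329). Hmox1, haem oxygenase 1, had 6.36 and 6.30 in knock-in against 6.65 and 6.85 in wild-type hearts, a difference of -0.42. Fgf21, a secreted metabolic hormone, had 5.68 and 5.92 in knock-in against 6.23 and 6.17 in wild-type hearts, a difference of -0.40. Sqstm1 and Rhoq, at 0.21 and 0.15, had the smallest p among genes with a higher mean. Of 19 genes, 8 had a higher and 11 a lower mean (median -0.01), and an unadjusted p under 0.05 was reached by 0 upward and 5 downward.

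In the glutathione list, the sister gene Chac2 lay on the other side of Chac1. Chac2, a glutathione-degrading enzyme gene of the same family, had 8.51 and 8.42 in knock-in hearts, against 7.48 and 8.25 in wild-type hearts. Its difference was 0.60 (95% interval 0.03 to 1.17, limma adjusted p = 0.461), and it rested on the low value of wild-type replicate 1, without which it was 0.21. Ggt7 differed by -0.42 and Anpep by 0.36. Ggt5 differed by -0.21 by its brightest probe set, against 0.33 and 0.13 by the others. Of 10 genes, 8 had a higher and 2 a lower mean (median 0.05), and an unadjusted p under 0.05 was reached by 2 upward and 1 downward.

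The endoplasmic reticulum chaperones, which are induced mainly through the other arms of the unfolded protein response, were lower for 11 of 15 genes, with a median of -0.24. An unadjusted p under 0.05 was reached by 0 upward and 5 downward. Sdf2l1 had 7.49 and 7.33 in knock-in against 7.88 and 8.25 in wild-type hearts, a difference of -0.65, and Hyou1 differed by -0.51. The other Hyou1 probe sets gave -0.46 and -0.06. Canx and Edem1 differed by 0.13 and 0.12.

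**Figure D5:**
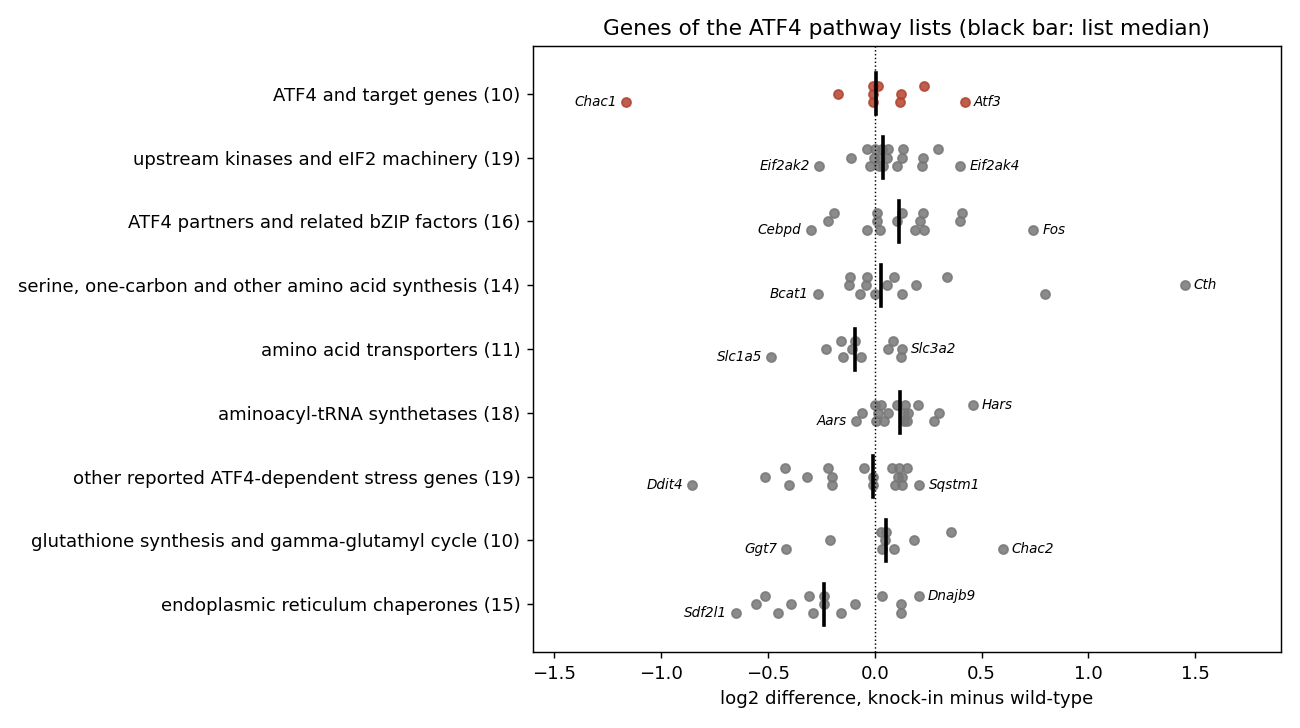
Log2 difference, knock-in minus wild-type, on the x axis for each measured gene of the 10-gene ATF4 group (red, top row) and of the 8 pathway lists (grey), with the number of genes in brackets, the list median as a black bar and the lowest and highest gene of each row named. Chac1 at -1.17 and Cth at 1.45 are the extremes of the plot, and list medians lie between -0.24 and 0.12.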

How the data were processed

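Total RNA was extracted with Trizol and hybridised as biotin-labelled cRNA to single-colour Affymetrix arrays, per the labels. The deposited values are log2 RMA summaries, 1 per probe set and array, made by the authors with the Affymetrix Expression Console named in the submitters' processing notes; the wild-type scans were normalised with these knock-in scans alone, per the labels. RMA forces the probe intensities of the arrays to 1 distribution before they are summarised, so most of a shift shared by most genes is removed. The array medians of the summaries still ran from 6.14 to 6.23. A program version was not given in the sources used here, nor was a filter.

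Of 45101 probe sets, 64 controls were left out. Symbols came from the array annotation; 34945 probe sets had 1 symbol, and 932 with several, among them 2 for Phgdh, were not named. Each gene was read by its probe set of highest mean. RefSeq (GRCm38.p6) gave chromosomes for 18032 of 18193 genes, matched by gene ID, and the promoter windows. Levels of different probe sets were compared only to rank the probe sets of a gene and to mark or leave out low signal.

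Differences and standard errors came from limma 3.58.1 under R 4.3.3, with genotype alone in lmFit and moderation by eBayes, and p-values were adjusted by Benjamini-Hochberg over 45037 probe sets at 0.05; the fit was tested on simulated data. The median standard error was 0.12, which the number of arrays limits. Members, lists and tests were chosen with earlier results of these data known. Named were all members, a fixed set of pathway genes, the 2 genes of smallest p per list and direction, and the 5 non-members nearest to Chac1. Gdf15 had no probe set of its own symbol alone. Fos, Dnajb9 and other genes labelled only in a plot are extremes of their lists.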

Additional observations from a re-analysis of the deposited data

How the results depend on the processing

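The alternatives were a shift of the arrays to 1 median, cyclic loess, a floor of 6 on the mean log2 value, averaging the probe sets of a gene, an intensity trend in the prior, the replicate number as a block, and each array left out in turn. The limma count of probe sets called was 3 higher and 0 lower. It was 11 with arrays shifted to 1 median, 4 with the replicate block, and 0 to 2 with 1 array left out, the 0 being without knock-in replicate 1. An unadjusted p under 0.05 was reached by 2283 probe sets upward and 2530 downward, and by 3768 upward and 1294 downward after the shift to 1 median. No gene of the pathway lists was called in any of the 10 alternatives. The labels give replicate numbers, but replicate differences of the genotypes correlated at only 0.085 over probe sets, so the numbers were not taken as pairs. The replicate block changed no call among the pathway genes.

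The count of members lower in knock-in hearts was 5. It was 2 with arrays shifted to 1 median and 4 to 5 with 1 array left out. The median of the members stayed between -0.02 and 0.07. Chac1, Trib3, Atf4 and Atf3 kept 1 sign in all 9 alternatives run for them, and the 6 other members did not. Several alternatives could not turn a sign. The floor of 6 and the replicate block left every member difference as it was. Averaging probe sets cannot change Chac1, Atf3 and Atf5, which have 1 each. Leaving out 1 array cannot turn the sign where the genotypes do not overlap, as for Chac1, Trib3 and Atf4. The kept signs are therefore no support for these differences. Of 43 other named genes, 35 kept 1 sign. Cyclic loess turned Ppp1r15a to -0.031. The mean of probe sets turned Eif2ak3 to -0.12, Aars to 0.011 and Ggt5 to 0.084. Leaving out 1 array gave Ppp1r15a -0.12 to 0.20, Eif2ak3 -0.034 to 0.15, Eif2ak1 -0.22 to 0.0012, Gsk3b -0.19 to 0.021, Slc38a2 -0.017 to 0.26, Aars -0.18 to 0.0091 and Iars -0.13 to 0.0096. The cause of these changes was not tested. Low signal limits Slc7a11, which the floor of 6 left out, as it did Eif2ak4. Fgf21, Psat1, Cth, Eif2ak4, Bcat1, Batf3, Eif2ak2 and Hmox1 lie near or below the array medians in at least 1 genotype.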
